A study of Homo sapiens with 8 samples.

Results

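The genes described here are 10 genes of melanin-forming cells, taken by symbol from the 19952 symbols that each library lists. They are the melanosome proteins PMEL and MLANA, the melanin enzymes TYR, TYRP1 and DCT, the melanosome receptor GPR143, the melanosome transporters OCA2 and SLC45A2, and the transcription factors MITF and SOX10. All 10 were listed in every library.

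RNA was sequenced from 2 human uveal melanoma cell lines, in 4 groups of 2 libraries each. In 92.1, cells with a short hairpin RNA against the cytidine deaminase APOBEC3B (shA3B) were compared with control cells (shCtrl). In MEL290, cells that overexpressed A3B (A3B OE) were compared with a negative control (NC). The labels give no treatment, time or further allele for any group. Per the study's methods the hairpins were carried by the lentiviral vector pGIPZ, with an empty vector as control, and full-length A3B by the lentiviral vector pHAGE, under puromycin selection. Both lines grew in RPMI1640 with fetal bovine serum. The labels do not name the hairpin, nor say whether the 2 libraries of a group came from separate cultures, so p-values measure the spread between these libraries, which may be technical. Cell line and vector cannot be told apart in any comparison of 92.1 with MEL290.

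Melanin is made in the melanosome, an organelle of pigment cells related to the lysosome. PMEL protein forms the fibrils inside it, tyrosinase starts melanin synthesis from tyrosine, and TYRP1 and DCT act on later intermediates. MITF is the transcription factor that governs the pigment genes of melanocytes, and SOX10 acts upstream of MITF and together with it. Uveal melanoma arises from melanocytes of the eye, and its lines differ in how much of this program they retain.

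The authors' values are FPKM, which are scaled by transcript length and by the mapped fragments of the library, so that levels are already per length. Depth per library is not given, and no counting interval can be attached to a value. Each library listed between 4583 and 5473 symbols at exactly 0 FPKM, and in no library was a gene listed at 0 whose replicate reached 10 FPKM. The targeted gene APOBEC3B went with the labels. In 92.1 it was at 34.1 ± 2.56 FPKM in shCtrl and 2.18 ± 0.278 FPKM in shA3B (SD, n = 2 each), a difference of -3.47 on the log2(FPKM + 1) scale (limma, adjusted p = 2.4e-06). For MEL290 it was at 2.43 ± 0.341 FPKM in NC and 27.9 ± 0.645 FPKM in A3B OE (SD, n = 2 each), a difference of 3.08 (limma, adjusted p = 0.00078).

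By the GENCODE annotation of GRCh38, PMEL lies at chr12:55954105-55973317 on the minus strand, MLANA at chr9:5890889-5910606 on the plus strand, TYR at chr11:89177875-89295759 (plus), TYRP1 at chr9:12685439-12710285 (plus), and DCT at chr13:94436811-94479682 (minus). GPR143 lies at chrX:9725346-9786297 (minus), OCA2 at chr15:27754875-28099315 (minus), SLC45A2 at chr5:33944623-33984693 (minus), MITF at chr3:69739456-69968336 (plus), and SOX10 at chr22:37970686-37987422 (minus). The 10 genes lie on 9 chromosomes, since MLANA and TYRP1 share chromosome 9. TYR and GPR143 have near-identical pseudogene copies elsewhere in the genome, and how reads that match both were assigned is not known, so their values carry that uncertainty.

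The bases before the start of 5 members are shown, because 4 of them hold the letters bound by MITF and the fifth is the start of MITF that melanocytes use. They were read from RefSeq promoter windows (GRCh38.p14), which matched 7 of the 10 members with 10 windows (2 for DCT, 3 for MITF). PMEL, SOX10 and SLC45A2 were not matched. Each run is the 250 bases before the start, on the strand of the gene. The starts are those of the RefSeq windows. For TYRP1, GPR143 and MITF they lie inside the gene positions printed above and are not the outer starts given there. Capitals mark CATGTG or its reverse complement CACATG, the core of the M-box that MITF binds, and in MITF the cyclic AMP response element TGACGTCA.
TYR, chr11:89177625-89177874, plus strand: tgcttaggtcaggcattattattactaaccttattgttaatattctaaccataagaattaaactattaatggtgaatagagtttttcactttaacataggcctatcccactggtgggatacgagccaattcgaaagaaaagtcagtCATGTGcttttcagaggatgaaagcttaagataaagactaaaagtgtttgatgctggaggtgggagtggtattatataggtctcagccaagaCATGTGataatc
TYRP1, chr9:12693135-12693384, plus strand: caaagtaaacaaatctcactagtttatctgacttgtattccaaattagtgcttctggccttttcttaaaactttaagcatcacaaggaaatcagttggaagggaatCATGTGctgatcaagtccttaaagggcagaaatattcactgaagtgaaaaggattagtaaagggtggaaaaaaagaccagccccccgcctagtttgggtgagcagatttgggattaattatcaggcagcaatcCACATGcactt
DCT, chr13:94479683-94479932, minus strand: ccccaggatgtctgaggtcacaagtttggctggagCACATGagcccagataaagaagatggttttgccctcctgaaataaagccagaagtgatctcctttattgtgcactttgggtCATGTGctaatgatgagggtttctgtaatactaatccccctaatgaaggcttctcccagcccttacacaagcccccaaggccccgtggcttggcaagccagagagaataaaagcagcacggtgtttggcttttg
GPR143, chrX:9765848-9766097, minus strand: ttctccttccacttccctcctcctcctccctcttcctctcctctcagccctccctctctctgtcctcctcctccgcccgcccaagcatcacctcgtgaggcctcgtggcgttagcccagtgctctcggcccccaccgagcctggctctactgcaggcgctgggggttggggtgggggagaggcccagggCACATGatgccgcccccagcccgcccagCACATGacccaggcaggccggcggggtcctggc
MITF, chr3:69936342-69936591, plus strand: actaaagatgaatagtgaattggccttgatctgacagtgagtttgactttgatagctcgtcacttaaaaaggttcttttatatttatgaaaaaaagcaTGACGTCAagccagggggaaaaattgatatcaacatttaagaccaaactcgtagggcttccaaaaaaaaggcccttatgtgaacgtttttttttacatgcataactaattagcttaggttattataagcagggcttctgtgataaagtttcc

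Counted from the base before the start as -1, the marked letters begin at -104 and -12 in TYR, at -144 and -11 in TYRP1, at -215 and -134 in DCT and at -61 and -33 in GPR143. OCA2 held CATGTG at -153. The letters, searched on both strands in windows of 300 bases (250 before the start and 50 after it), stood in 5 of the members' 10 windows (1 each of 5 members) and in 11.1% of all 35116 RefSeq windows. The longer TCATGTG, which contains CATGTG, stood in 4 of the 10 windows (TYR, TYRP1, DCT and GPR143) and in 2.92% of all windows. CACGTG, the other core read by this family of factors, stood in none of the 10 and in 7.26% of all windows. The SOX-type letters ACAAAG stood in windows of MITF and OCA2 (16.1% of all windows) and ACAATG in a window of MITF (10.8%). TGACGTCA stood in 1 window of MITF, at -152, and in 1.85% of all windows. These are matches of letters in a window, and no binding was measured here.

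The levels of the 10 genes separated the 2 cell lines in every library. Between shCtrl and NC, libraries did not overlap for 11043 of the 12697 genes tested, so such separation was the common case. In 92.1 the 10 genes summed to between 7286 and 8906 FPKM, which was 1.15% to 1.31% of the summed FPKM of all genes. In MEL290 they summed to between 32.8 and 39.4 FPKM, or 0.00511% to 0.00632%. All 10 reached 1 FPKM in each library of 92.1. In MEL290, 2 members reached it in each NC library, and 3 in each A3B OE library. MITF and GPR143 were above 10 FPKM in each library of MEL290, described as a uveal melanoma line. PMEL was near 1 FPKM there, and the other members stayed under it, with MLANA, TYR and SOX10 at or near 0. RNA was taken from whole cultures, so fewer cells with these transcripts and less of them per cell cannot be told apart.

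**Figure D1:**
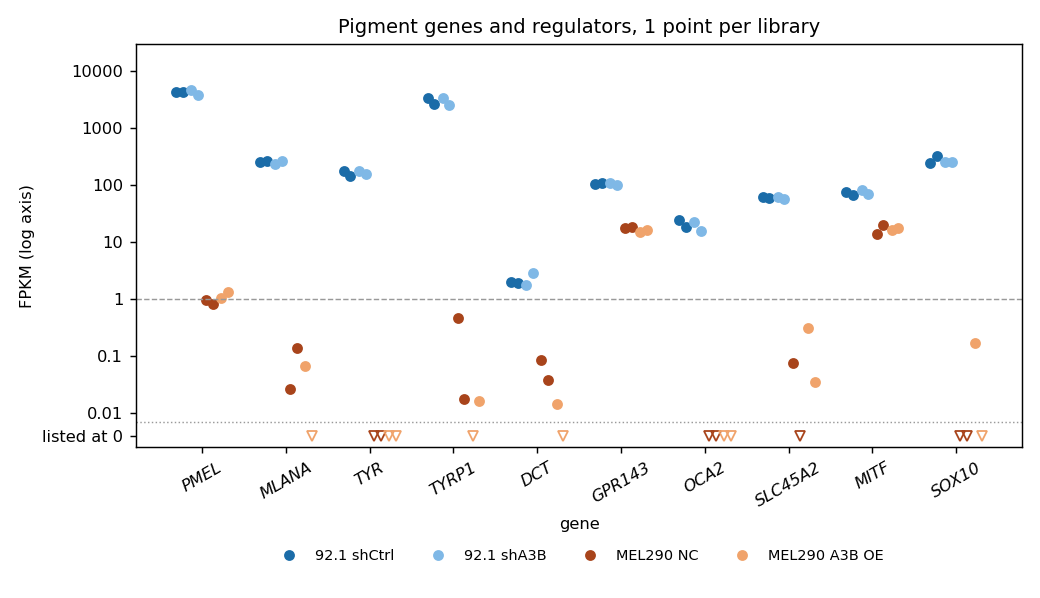
FPKM of the 10 genes on a log axis, 1 point per library, in the 2 groups of 92.1 (blue) and the 2 groups of MEL290 (brown and orange), with libraries listed at 0 as open triangles under the dotted line and 1 FPKM as the dashed line. The 4 libraries of 92.1 lie above the 4 of MEL290 for each gene, and MITF and GPR143 are the genes above 10 FPKM in both lines. Libraries of shCtrl and NC did not overlap for 11043 of the 12697 genes tested.

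PMEL, whose product builds the fibrils on which melanin is laid down, was the most abundant member in 92.1. Its FPKM was 4316 and 4390 in shCtrl and 4587 and 3777 in shA3B, which placed it between rank 13 and rank 16 of the 19952 symbols. MEL290 had 0.962 and 0.836 FPKM in NC and 1.03 and 1.31 FPKM in A3B OE. The lines did not overlap, and the ratio of the mean FPKM of shCtrl to that of NC was 4840, with 4485 to 5249 over the 4 pairs of libraries. The difference between these control libraries was 11.16 on the log2(FPKM + 1) scale (standard error 0.115, adjusted p = 3e-10, limma).

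MLANA, a melanosome membrane protein used as a marker of the melanocyte lineage, was at 251 and 265 FPKM in shCtrl and at 237 and 267 FPKM in shA3B. The values of MEL290 were at 0.0268 and 0.138 FPKM in NC and at 0.0675 and 0 FPKM in A3B OE. Both groups of 92.1 overlapped, as did both groups of MEL290. The ratio of shCtrl to NC was 3140, with 1823 to 9910 over the pairs of libraries.

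Among the melanin enzymes, TYRP1 came next to PMEL in 92.1 and DCT was near 2 FPKM. TYRP1, which acts after tyrosinase in making brown-black melanin, was at 3388 and 2689 FPKM in shCtrl and at 3370 and 2588 FPKM in shA3B. It was at 0.472 and 0.0179 FPKM in the NC libraries, and the A3B OE libraries had 0 and 0.0161 FPKM. The first NC library was the high one, so the ratio of the lines rests on it, and the pairs of control libraries gave ratios from 5699 to 189700.

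TYR, tyrosinase, the rate-limiting enzyme of melanin synthesis, was at 175 and 145 FPKM in shCtrl and at 178 and 156 FPKM in shA3B. It was listed at 0 in all 4 libraries of MEL290, so no fold is given. DCT, dopachrome tautomerase, was at 1.97 and 1.93 FPKM in shCtrl and at 1.77 and 2.82 FPKM in shA3B. The MEL290 libraries were at 0.0870 and 0.0377 FPKM in NC and at 0.0142 and 0 FPKM in A3B OE. DCT was thus the lowest member in each library of 92.1, at rank 10132 to 10846, and still did not overlap with MEL290.

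The transporters and the receptor of the melanosome differed in what remained in MEL290. OCA2, which takes part in a chloride conductance of the melanosome, was at 24.1 and 18.2 FPKM in shCtrl and at 22.9 and 15.4 FPKM in shA3B, and was listed at 0 in all 4 MEL290 libraries. SLC45A2, a sugar and proton transporter of the melanosome, was at 63.1 and 59.3 FPKM in shCtrl and at 62.3 and 56.0 FPKM in shA3B. Its level in MEL290 was at most 0.312 FPKM, with 0.0750 and 0 FPKM in NC and 0.312 and 0.0346 FPKM in A3B OE. GPR143, a receptor in the melanosome membrane that is mutated in ocular albinism, was at 105 and 109.9 FPKM in shCtrl and at 110 and 101 FPKM in shA3B. NC had 17.7 and 18.7 FPKM and A3B OE 14.8 and 16.3 FPKM. With MITF, GPR143 was thus above 10 FPKM in every library of both lines, with a ratio of shCtrl to NC of 5.91 (5.62 to 6.21 over the 4 pairs) and a log2(FPKM + 1) difference of 2.50 (standard error 0.0950, adjusted p = 9.2e-08, limma). Its start holds the same letters as those of TYR and TYRP1, which were near or at 0 in MEL290.

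MITF was detected in both lines. It was at 75.4 and 67.0 FPKM in shCtrl and at 81.4 and 68.7 FPKM in shA3B, against 13.7 and 19.6 FPKM in NC and 16.4 and 17.5 FPKM in A3B OE. The ratio of shCtrl to NC was 4.28, from 3.41 to 5.52 over the pairs, and the log2(FPKM + 1) difference was 2.05 (standard error 0.166, adjusted p = 8e-06, limma). The values are per gene symbol, so the transcripts from the several starts of MITF, of which only some are specific to melanocytes, were not separated. SOX10 was at 247 and 328 FPKM in shCtrl and at 255.8 and 256.1 FPKM in shA3B. It was listed at 0 in both NC libraries and in the second A3B OE library, and was at 0.168 FPKM in the first. Of the 2 transcription factors, then, MITF kept a level above 10 FPKM in MEL290 and SOX10 did not reach 1 FPKM.

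The order of the levels was the same in both groups of 92.1. It ran from PMEL over TYRP1, SOX10, MLANA, TYR, GPR143, MITF, SLC45A2 and OCA2 to DCT, and SOX10 and MLANA were the neighbours whose libraries overlapped. In NC, GPR143 and MITF overlapped at the top and PMEL came next. The libraries of the remaining 7 members overlapped from one neighbour to the next. In A3B OE, MITF was first, followed without overlap by GPR143, PMEL and SLC45A2, and the lower members overlapped. PMEL and TYRP1 together made up 87.4% to 89.3% of the members' summed FPKM in 92.1. MITF and GPR143 made up 95.1% to 97.4% of it in MEL290.

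**Figure D2:**
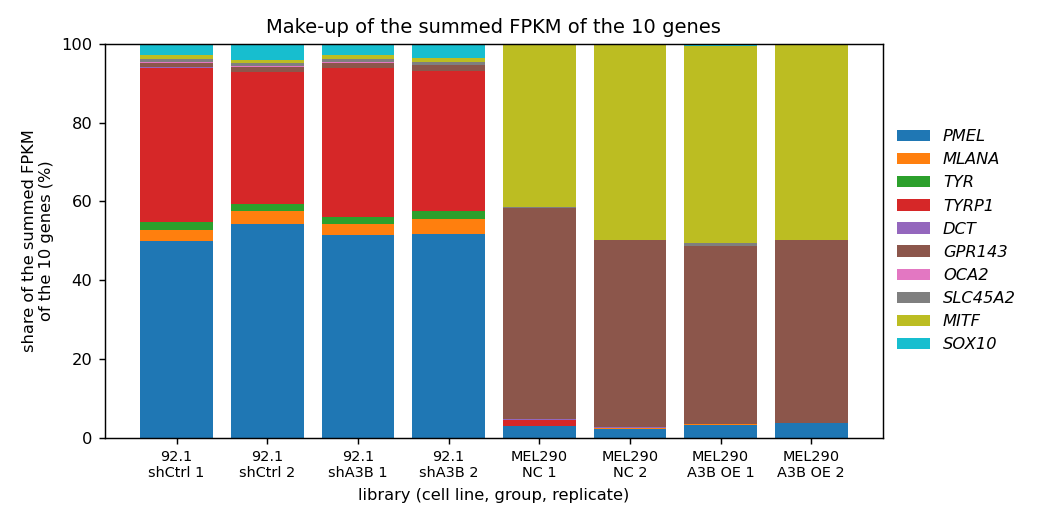
Share of each of the 10 genes in their summed FPKM (percent, stacked to 100) in each of the 8 libraries. PMEL (blue) and TYRP1 (red) fill 87.4% to 89.3% of the bars of 92.1, and MITF (olive) and GPR143 (brown) 95.1% to 97.4% of the bars of MEL290.

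Whether A3B depletion moved these genes was tested in 92.1 with limma on log2(FPKM + 1) over genes with at least 1 FPKM in at least 2 of the 4 libraries. None of the 10 members, all of which entered the test, was called at an adjusted p under 0.05. An unadjusted p under 0.05 was found for 0 of the 10 and for 336 of the 11605 genes tested. Of the 11605 genes tested, 0.00862%, which is the 1 gene APOBEC3B, were called. The libraries of shCtrl and shA3B overlapped for each of the 10 members, while they did not overlap for 28.6% of all genes tested. The median difference of the members was -0.03, against 0.00 over all genes.

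The differences ran from -0.15 for SOX10 to 0.14 for DCT. The melanosome proteins PMEL and MLANA differed by -0.06 (95% confidence interval -0.386 to 0.257) and -0.04 (-0.323 to 0.248). The enzymes TYR, TYRP1 and DCT differed by 0.06 (-0.251 to 0.380), -0.03 (-0.407 to 0.344) and 0.14 (-0.316 to 0.598). OCA2, SLC45A2 and GPR143 differed by -0.15 (-0.584 to 0.286), -0.05 (-0.341 to 0.242) and -0.03 (-0.313 to 0.252), and MITF and SOX10 by 0.07 (-0.238 to 0.383) and -0.15 (-0.485 to 0.180). The adjusted p was 1 for each (limma). The sign turned for PMEL, MLANA, TYRP1 and GPR143 with quantile normalization, and for TYRP1 and GPR143 with upper quartile scaling. The intervals give the changes that these libraries could not tell from 0, and none of them reached 0.6 in either direction. Within a group, the coefficients of variation of FPKM ran from 1.20% (PMEL) to 20.0% (OCA2) in shCtrl and from 0.0856% (SOX10) to 32.4% (DCT) in shA3B.

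In MEL290, 3 members reached the filter. PMEL, MITF and GPR143 were tested, and the other 7 (MLANA, TYR, TYRP1, DCT, SOX10, OCA2 and SLC45A2) stayed under 1 FPKM in all 4 libraries and were not. PMEL passed through its 2 A3B OE libraries alone. None of the 3 was called, where 17.8% of the 11611 genes tested were. PMEL was higher in both A3B OE libraries than in both NC libraries, by 0.19 (95% confidence interval -0.200 to 0.577, adjusted p = 0.46, limma). GPR143 was lower in both, with a difference of -0.22 (-0.462 to 0.030, adjusted p = 0.2, limma, unadjusted 0.075). MITF overlapped between the groups, with a difference of 0.04 (-0.371 to 0.457, adjusted p = 0.89, limma). Libraries that do not overlap between groups were found for 61.3% of all genes tested, so that for GPR143 this was the common case. For PMEL, under 1 FPKM in both NC libraries, the filter fixed the direction and the lack of overlap, so neither carries weight.

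**Figure D3:**
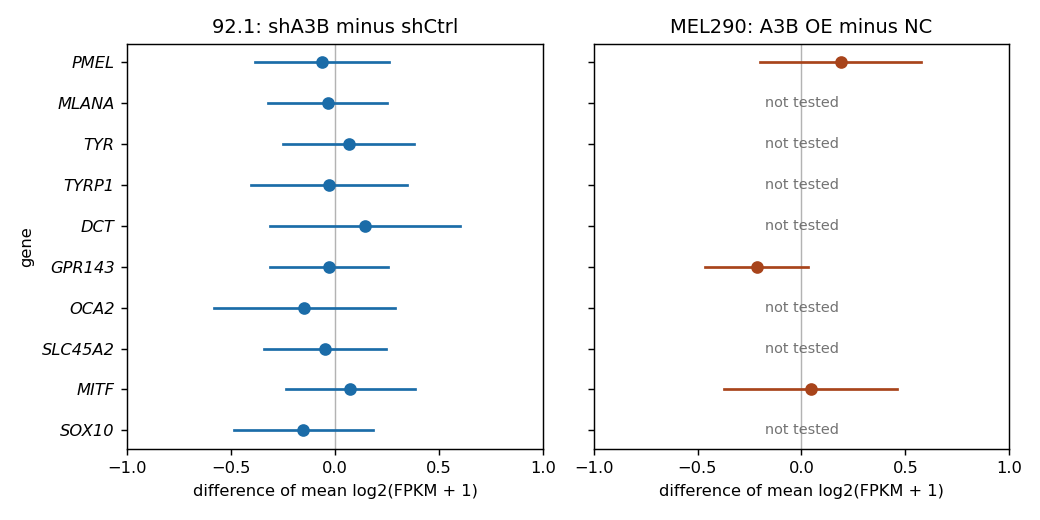
Difference of mean log2(FPKM + 1) between the groups within each line (points) with its 95% confidence interval (lines) for the 10 genes, shA3B minus shCtrl in 92.1 on the left and A3B OE minus NC in MEL290 on the right. Each interval drawn crosses 0, and 7 genes under 1 FPKM in MEL290 were not tested there.

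The difference between the effects in the 2 lines (the overexpression difference of MEL290 with the depletion difference of 92.1 subtracted) was tested in 1 limma fit over all 8 libraries. A3B was lowered in 92.1 and raised in MEL290, so a gene that follows A3B alike in both lines also gives a difference. It was called for 0 of the 10 members and 4.4% of the 12697 genes tested. The members' values ran from -0.25 for TYRP1 to 0.26 for SOX10, with adjusted p from 0.44 to 0.96 (limma). For TYR and OCA2, listed at 0 in every MEL290 library, this difference holds only the effect in 92.1, with its sign turned. For the other members near 0 in MEL290 it also holds changes among values near 0. TYRP1 gave -0.25 where its effect in 92.1 was -0.03, and its NC libraries were at 0.472 and 0.0179 FPKM. SOX10 gave 0.26 where its effect in 92.1 was -0.15, and SLC45A2 0.22 where its effect was -0.05.

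Between the control libraries, 92.1 shCtrl minus MEL290 NC, 74.9% of the 12697 genes tested were called, 40.1% as higher in shCtrl and 34.8% as lower. All 10 members were called higher. The comparison shares its shCtrl libraries with the one in 92.1 and its NC libraries with the one in MEL290. Of the 10 members, 7 passed the filter through 92.1 alone, and PMEL was under 1 FPKM in both NC libraries and passed in MEL290 through A3B OE. These members had to be higher in shCtrl, so neither the number called nor the members' median, which was 6.61 on the log2(FPKM + 1) scale against 0.07 over all genes, carries weight for them. MITF and GPR143 were the members above 1 FPKM in both groups compared, and their values and that of PMEL are given above. For the others the difference was 7.91 for MLANA, 7.32 for TYR, 11.27 for TYRP1, 1.47 for DCT, 8.16 for SOX10, 4.46 for OCA2 and 5.91 for SLC45A2. On this scale values near 0 in MEL290 count as about 0, so the difference of DCT, whose shCtrl level was near 2 FPKM, is small where the ratio of its mean levels was 31.3 (22.2 to 52.1 over the pairs).

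Genes that act around the members were taken from 5 further lists. Their counts between the control libraries stand beside 40.1% called higher in shCtrl and 34.8% called lower over all genes tested. The 23 genes of melanosome biogenesis and transport all reached 1 FPKM in both lines. Of these, 17 were called higher in shCtrl than in NC and 4 lower, with a median of 0.60. RAB38, a small GTPase that brings TYR and TYRP1 to the melanosome, was at 268 and 266 FPKM in shCtrl and at 6.56 and 6.09 FPKM in NC, a difference of 5.20 (adjusted p = 6e-09, limma). LYST, the lysosomal trafficking regulator, differed by 4.09, and MLPH, which links melanosomes to their myosin motor, by 3.21. On the lower side, AP3B1, a subunit of the adaptor that sorts cargo to melanosomes, differed by -1.67, RAB27A, the GTPase that tethers melanosomes through MLPH, by -1.06, and BLOC1S2 by -0.82.

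Of 5 further melanosome channels and transporters, 4 were called higher in shCtrl and 1 lower, with a median of 1.48. SLC24A5, a cation exchanger of the melanosome, was at 57.9 and 47.7 FPKM in shCtrl and at 0.0807 and 0.0691 FPKM in NC (5.64, adjusted p = 6e-09, limma) and passed the filter through 92.1 alone. TPCN2, an ion channel of the melanosome, differed by 2.76 and the copper transporter ATP7A by 1.48. The cystine transporter SLC7A11 was lower in 92.1, with a difference of -2.80.

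Of 26 target genes of MITF and other pigment-cell genes, 24 were tested and 24 were called higher in shCtrl, with a median of 3.56. Here 16 of the 24 passed the filter through 92.1 alone, and the 8 that passed it in both lines were called higher too. APOE differed by 9.10, the calcium-binding protein S100A1 by 7.08 and SEMA6A by 6.91. All of these named genes passed the filter through 92.1 alone, which fixes their sign.

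Among 18 upstream receptors and regulators, 16 were tested, 9 were called higher in shCtrl and 5 lower, with a median of 1.25. Of these, 6 passed the filter through 92.1 alone, with SNAI2 and PAX3 among them, and 1, ZEB1, through MEL290 alone, which fixes their sign. Among the 9 that passed it in both lines, 3 were called higher and 4 lower. TFAP2A, a transcription factor that works with MITF on pigment genes, differed by 6.30. SNAI2 differed by 5.86 and PAX3, which acts with SOX10 on the start of MITF, by 5.59. The lower genes were led by ZEB1 with -2.98, SOX9 with -2.40 and BHLHE40 with -2.12. TFE3, a relative of MITF that binds the same letters, was named after its values were seen. It was at 8.73 and 8.39 FPKM in shCtrl and at 31.2 and 26.1 FPKM in NC (-1.63, adjusted p = 4.6e-06, limma). It thus ran opposite to MITF between the lines.

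Of 11 genes of the melanoma state with low MITF, 9 were tested and 9 were called lower in shCtrl, with a median of -4.40, and 6 of them passed the filter through MEL290 alone. The receptor tyrosine kinase AXL differed by -7.58, the cadherin CDH2 by -6.12 and the growth factor receptor EGFR by -5.36. All of these named genes passed the filter through MEL290 alone, which fixes their sign.

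Within 92.1, A3B depletion called 0 genes in each of these 5 lists (limma), with 2 of 24 tested MITF targets at an unadjusted p under 0.05 and none in the other 4 lists. Over all genes tested in 92.1, 336 of 11605 were under it. Within MEL290, where 17.8% of all genes tested were called, the biogenesis list held 2 genes called higher and 2 called lower of 23, a share near that of all genes. RAB27A went from 8.89 and 9.19 FPKM in NC to 19.3 and 21.7 FPKM in A3B OE (1.09, adjusted p = 0.0034, limma) and HPS3 rose by 0.71 (adjusted p = 0.031, limma). BLOC1S6 changed by -0.54 and AP3B1 by -0.36 (adjusted p = 0.01 and 0.03, limma). No channel of the 4 tested was called. Of 8 MITF targets tested, 0 were called higher and 2 lower, which were ASAH1 with -0.43 and TBC1D16 with -0.41 (adjusted p = 0.022 and 0.036, limma). Of 10 upstream genes tested, ZEB1 rose by 0.49 and BHLHE40 changed by -0.56 (adjusted p = 0.032 and 0.0072, limma). Among 9 genes of the state with low MITF, 4 were called higher and 2 lower, beside the same 17.8% over all genes. The higher ones were led by AXL with 1.07 and ROR2 with 0.86 (adjusted p = 0.0016 and 0.013, limma), and the lower ones were TNC with -0.72 and NNMT with -0.56 (adjusted p = 0.049 for both, limma). Several of these calls were lost with 1 library left out, which also leaves fewer samples. HPS3, ASAH1, ROR2 and AP3B1 lost theirs without A3B OE library 2 (adjusted p = 0.11, 0.080, 0.055 and 0.093, limma), as did TBC1D16, ZEB1, TNC and NNMT (0.13, 0.13, 0.10 and 0.13). Without A3B OE library 1 the same held for HPS3, ROR2, AP3B1, TBC1D16, ZEB1 and TNC (0.14, 0.080, 0.089, 0.10, 0.061 and 0.20). AP3B1 and TBC1D16 were also lost without NC library 1 (0.058 and 0.13), and AP3B1, TBC1D16, ZEB1 and TNC without NC library 2 (0.13, 0.064, 0.064 and 0.10). RAB27A, BLOC1S6, BHLHE40 and AXL stayed called with any 1 library left out. BHLHE40, ASAH1, AP3B1 and ZEB1 were not called in a fit of all 8 libraries (adjusted p = 0.057, 0.051, 0.084 and 0.16, limma). With no filter on low FPKM, HPS3, TBC1D16, ZEB1, TNC and NNMT were not (0.094, 0.062, 0.073, 0.13 and 0.12). AP3B1, TNC and NNMT were also lost without the trend of the fit (0.061, 0.059 and 0.073). TNC was lost with upper quartile scaling (0.054), and TNC and NNMT with at least 0.1 FPKM in 2 libraries (0.067 and 0.065). The medians of these 5 lists in MEL290 ran from -0.10 to 0.19, against 0.00 over all genes.

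Genes with the pattern most like that of the members were sought by the Pearson correlation with the mean log2(FPKM + 1) of the members over the 8 libraries, among 1089 genes with a range of at least 3 on that scale. The points fall into 2 cell lines, so the measure orders genes by how cleanly they separate the lines, and 345 genes exceeded 0.99. The first 5 were PDZD4 (0.99982), GPNMB (0.99978), IGFBP2 (0.99978), APOE (0.99977) and VANGL2 (0.99976). GPNMB, a melanosome glycoprotein related to PMEL, was at 374 and 365 FPKM in shCtrl and at 40.6 and 41.1 FPKM in NC. IGFBP2 was at 191 and 195 FPKM in shCtrl and was listed at 0 in all 4 libraries of MEL290.

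Markers of other cell types also moved between the lines, and their part in the results was not tested. Over 6 epithelial markers the summed FPKM was 3.75 to 5.67 in 92.1, 2548 to 2584 in NC and 1680 to 1897 in A3B OE. In MEL290 nearly all of it came from KRT8 and KRT18, while KRT5 was listed at 0 in every library and EPCAM stayed under 0.1 FPKM. In A3B OE, KRT18 changed by -0.66 and KRT14 by -1.10 (adjusted p = 0.0041 and 0.0091, limma; KRT14 was lost without A3B OE library 1, at 0.057), and 3 of the 3 epithelial markers tested were called lower, where 870 of all 11611 genes tested were. Over 8 fibroblast markers the sum was 5.60 to 8.11 FPKM in 92.1, 62.7 to 64.2 in NC and 98.4 to 104 in A3B OE, where POSTN rose by 1.28 (adjusted p = 0.0024, limma) and was the 1 marker called of 3 tested, beside 17.8% of all genes. Of these, COL3A1 stayed under 0.2 FPKM and DCN was at 0 in 7 of 8 libraries. LUM went the other way from the sum, at 5.03 and 3.83 FPKM in shCtrl and at 0.0229 and 0 FPKM in NC. Over 8 markers of the retinal pigment epithelium, the other pigmented cell of the eye, the sum was 187 to 249 FPKM in 92.1 and 12.4 to 23.3 FPKM in MEL290. It came mostly from SERPINF1 in 92.1 and from RDH5 in MEL290, where RDH5 changed by -1.05 with A3B OE (adjusted p = 0.012, limma, and 0.056 with no filter on low FPKM) as 1 of 2 markers tested, and the defining RPE65 was at 0 in 7 of 8 libraries. Over 3 Schwann cell markers, a cell type that also uses SOX10, the sum was 83.1 to 107 FPKM in 92.1, nearly all from PMP22, and 14.4 to 24.7 FPKM in MEL290, where PMP22 rose by 0.62 with A3B OE (adjusted p = 0.011, limma; 0.064 without A3B OE library 2). The 6 endothelial markers summed to under 0.5 FPKM in each library, and of 6 leukocyte markers CD68 was the 1 above 1 FPKM.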

How the data were processed

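RNA-seq of 8 libraries was used, 2 in each of 4 groups taken from the labels. The deposited values are FPKM, which the authors calculated with Cufflinks after alignment to GRCh38 with STAR; versions are not given in the sources used here. The study's methods name an Ensembl release that was made on GRCh37, so the gene models behind the FPKM are not settled, and the gene positions printed come from GENCODE. FPKM are no counts, so no count test was run, and the authors' own test, Cuffdiff, starts from reads. The column of gene names is headed differently in the files of 92.1 and MEL290, so the tables may have been made separately, which bears on every level set across the lines.

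Values were used as log2(FPKM + 1). Genes with at least 1 FPKM in at least 2 libraries were fitted with limma 3.58.1 (lmFit, eBayes with a trend) in R 4.3.3, each line alone, and 1 fit over 8 libraries served the control libraries and the difference of the effects. P-values are two-sided and were Benjamini-Hochberg adjusted over all genes tested (threshold 0.05). The fit was tested on simulated data. An exact permutation test of 2 against 2 libraries cannot go below 0.33 and was not used. The members and lists were chosen with earlier results of these data known.

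Named genes are the members, APOBEC3B, per list and within-line comparison up to 2 called genes each way, between control libraries up to 3 each way, and the 5 genes most alike in pattern. Genes named from the lists were those whose libraries did not overlap between the groups. Alternatives were the pseudocount, filter, trend, normalization, samples in the fit, replicate block and each library left out. A planned count branch could not be used. Libraries with RNASEH1 and 2 genes of the lists are not reported here.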

Additional observations from a re-analysis of the deposited data

Results flagged for a closer look

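The effect of overexpression in MEL290 and that of depletion in 92.1, the second subtracted from the first, differed past the threshold for 3 genes of the lists around the members, in the limma fit over 8 libraries, where 4.4% of all genes tested did. These were AXL with 1.01 (adjusted p = 0.01), ROR2 with 0.84 (adjusted p = 0.035) and MBP with -0.72 (adjusted p = 0.041) on the log2(FPKM + 1) scale. AXL and ROR2 were 2 of 9 tested genes of the state with low MITF, and MBP was 1 of 24 tested MITF targets. None was called among the 23, 5 and 16 genes tested of the other lists. A3B moved in opposite directions in the 2 lines, so such a difference can also come from a gene that answers A3B alike in both. APOBEC3B itself gave 6.55 (adjusted p = 3.2e-06, limma). MBP, the myelin basic protein gene, was at 80.1 and 74.5 FPKM in shCtrl, at 117 and 100.2 FPKM in shA3B, at 19.4 and 17.9 FPKM in NC and at 15.04 and 16.3 FPKM in A3B OE. It was named after its values were seen, and in neither line alone was it called (adjusted p = 1 in 92.1 and 0.17 in MEL290, limma). AXL and ROR2 were under 0.1 FPKM in every library of 92.1, so their differences hold the effect in MEL290. With 1 library left out, MBP and ROR2 were lost for each of the 8 libraries (adjusted p from 0.061 to 0.15 and from 0.069 to 0.12, limma), and AXL for each of the 4 of MEL290 (0.051 to 0.066). With a pseudocount of 0.1, AXL went to 0.66 and lost its call (adjusted p = 0.13, limma), as did ROR2 (0.16) and MBP (0.051). AP3B1 was higher in both shA3B libraries and lower in both A3B OE libraries than in their controls, and the difference of -0.63 was not called (adjusted p = 0.084, limma).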

How the results depend on the processing

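Between the control libraries, 172 of 172 values for single members kept direction and call. There the sign was fixed for PMEL and the 7 members that passed the filter through 92.1 alone. For those the count carries no weight. In MEL290, 37 of 39 values kept both, and in 92.1 118 of 140. For the difference of the effects 148 of 162 did. The others changed sign, none of them called. In 92.1 this came with quantile normalization for PMEL (0.010), MLANA (0.014), TYRP1 (0.013) and GPR143 (0.0080), and with upper quartile scaling for TYRP1 (0.0028) and GPR143 (0.0034). Leaving out 1 library at a time gave, in 92.1, -0.20 to 0.076 for PMEL, -0.12 to 0.046 for MLANA, -0.072 to 0.20 for TYR, -0.22 to 0.16 for TYRP1, -0.091 to 0.37 for DCT, -0.048 to 0.19 for MITF, -0.35 to 0.049 for SOX10, -0.095 to 0.033 for GPR143, -0.42 to 0.12 for OCA2 and -0.12 to 0.025 for SLC45A2, and in MEL290 -0.20 to 0.29 for MITF. For the difference it gave -0.11 to 0.055 for MLANA, -0.12 to 0.42 for OCA2, -0.20 to 0.072 for TYR, -0.28 to 0.22 for MITF, -0.45 to 0.014 for DCT and -0.51 to 0.018 for TYRP1.

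The 1 gene called in 92.1 became 2 without the trend or with at least 0.1 FPKM in 2 libraries, 0 with no filter (APOBEC3B at an adjusted p of 0.14, limma), and 2 to 9 with a library left out. In MEL290 the 2065 calls became 1210 with no filter and 809 to 1979 with a library left out, the lowest being 888 and 809 without A3B OE library 1 or 2. The 559 calls of the difference became 328 with at least 1 FPKM in every library and 36 to 286 with a library left out, lowest without A3B OE library 1. That filter left 2 members testable between the control libraries, and both were called. With the replicate block, 37 genes were called in 92.1, 1521 in MEL290, 9464 between the control libraries and 223 for the difference, and no member's call changed, while AP3B1, TBC1D16 and ZEB1 in MEL290 and ROR2 and MBP for the difference were no longer called. Same-numbered libraries deviated together with a correlation of 0.19 in 92.1 and -0.03 in MEL290, over 2 pairs each, so the numbers are not shown to pair libraries. A lone library left in a group was assumed to vary like the others. Values under about 1 FPKM could not be compared at a known depth.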

Other observations

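Receptors that signal to MITF in melanocytes were picked after their values were seen. MC1R, the melanocortin receptor, was at 6.31 and 8.33 FPKM in shCtrl, at 6.48 and 7.66 FPKM in shA3B, at 1.20 and 1.53 FPKM in NC and at 2.02 and 1.58 FPKM in A3B OE. EDNRB, the endothelin B receptor, was at 44.5 and 43.3 FPKM in shCtrl and at 38.3 and 37.0 FPKM in shA3B, and was listed at 0 in all 4 libraries of MEL290. KIT, the receptor of the stem cell factor, stayed under 0.05 FPKM in the 4 libraries of 92.1 and was listed at 0 in MEL290. FOXD3, a transcription factor of the neural crest, was at 4.59 and 4.32 FPKM in shCtrl, at 3.71 and 3.15 FPKM in shA3B and at 0 in MEL290.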
